A study of Mus musculus with 4 samples.

Results

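A set of 40 genes was followed in mouse skin with and without Bmal1: macrophage markers, the receptors through which these cells bind antibody (Fc receptors), and the complement system. Each gene was read from its probe set on the array with the highest mean signal among those paired with a single gene. Of the 40, 39 had such a probe set, among 19938 genes that did, and 33 lay above the signal filter and were tested, among 14919 genes. C3 was not analysed here, and Aif1, Msr1, Fcgr4, C6, C7 and Cfi stayed below the filter.

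Macrophages are resident phagocytes of the dermis that clear debris and microbes. They depend on the growth factor CSF1, which signals through the receptor CSF1R. Their Fc receptors recognise antibody-coated targets, and most of these receptors signal through the short adaptor FcRγ, the product of Fcer1g. A related adaptor, DAP12 (the product of Tyrobp), serves TREM2 and other myeloid receptors. Complement is a cascade of plasma and tissue proteins: C1q, made largely by macrophages, starts the classical pathway, C2 and C4 carry it on, factor B and properdin drive the alternative pathway, and C1 inhibitor, factor I, CD55 and CD59 restrain it. Fibroblasts and other stromal cells of skin make several of these components themselves.

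Whole back skin of C57Bl6 mice was taken at postnatal day 22 when hair follicles rest (telogen), at ZT22, late in the dark phase (ZT counts hours from lights on). The control mice were heterozygous, with 1 mutant and 1 wild-type allele of Bmal1, so both genotypes carried a mutant allele and no wild-type mouse was included. In the knockout mice both copies were deleted in the germline and hence in every cell type. There were 2 mice a genotype, each on 1 Affymetrix array, and that number limits the precision. Values are log2 signals after quantile normalization, and a difference is knockout minus heterozygous.

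Arntl, the gene of BMAL1, was read at 8.90 and 9.08 in heterozygous skin, against 8.29 and 8.15 in knockout skin (difference -0.76, SE 0.12, limma adjusted p = 0.015), or 58.8% of the heterozygous mean. Its probe set may hold probes outside the deleted part. Over all 16341 tested probe sets 323 passed an adjusted p under 0.05, or 1.98%, of which 241 were higher and 82 lower in the knockout. After median centring 913 passed, 780 higher and 133 lower. The count was 0 when probe sets paired with several genes were tested too, and Arntl then had an adjusted p of 0.102. Markers of keratinocytes, the main cells of epidermis, were present in every array, with a mean log2 signal over 9 genes of 12.10 and 11.75 in heterozygous and 12.16 and 11.94 in knockout skin.

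No member passed the adjusted threshold, and the members that stood out all read lower in the knockout. Of the 33 tested members 25 had a lower and 8 a higher mean in the knockout, with a median difference of -0.16 against 0.021 over all tested probe sets. At an unadjusted p under 0.05, limma gave 8 members lower and 0 higher. Over all tested probe sets 17.9% met this level, 6.38% lower and 11.6% higher. The 8 were Trem2, Cd68, Tyrobp, Csf1, Fcer1g, C3ar1, Serping1 and Cfb. The smallest adjusted p among members was 0.0627, for Trem2. Both knockout arrays lay below both heterozygous arrays for 13 tested members and above them for 1. Over all tested probe sets these shares were 22.1% and 27.8%, or 49.8% together. The other 19 members overlapped between genotypes.

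**Figure D1:**
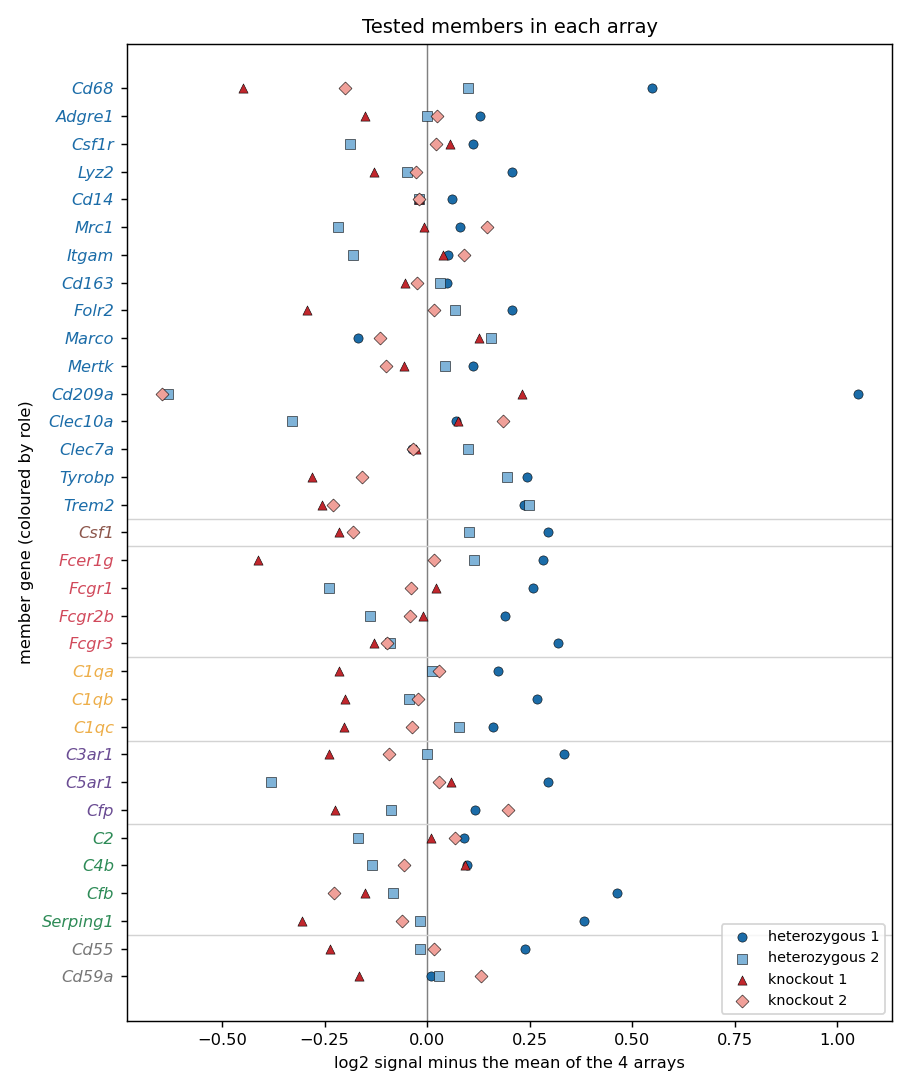
Log2 signal of the 33 tested members in each of the 4 arrays, as the distance from each gene's mean over the arrays, in order of role. Heterozygous array 1 lies to the right of heterozygous array 2 for 29 of the 33 genes, and the knockout symbols lie wholly to the left of both heterozygous symbols for 13.

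Heterozygous array 1 read higher than the other heterozygous array for most members. It exceeded heterozygous array 2 in 29 of 33 tested members, by a median of 0.23. This was not particular to the members. It held for 9 of 9 keratinocyte, 7 of 7 adipocyte and 8 of 9 sebocyte markers, by medians of 0.29, 0.41 and 0.41. Among skeletal muscle markers it held for 4 of 10, and among endothelial markers for 2 of 9. Over all tested probe sets the array means were 8.55 and 8.48 in heterozygous and 8.57 and 8.53 in knockout skin. The mean over all tested members was 8.88 and 8.62 in heterozygous and 8.56 and 8.63 in knockout skin, so heterozygous array 2 lay beside the knockout arrays. Without heterozygous array 1 the median difference of the members was -0.068, against 0.058 over all tested probe sets. Without heterozygous array 2 the median of the members was -0.27, against -0.013 over all tested probe sets. The members' median was -0.093 without knockout array 1 and -0.21 without knockout array 2. It was -0.065 after median centring (0.10 over all tested probe sets) and -0.10 with the values as deposited. After median centring 2 of 33 members were lower at an unadjusted p under 0.05 (limma), against 4.87% of all tested probe sets. With the values as deposited 4 of 33 were, against 6.83%.

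Among the macrophage and myeloid markers, Cd68, Trem2 and Tyrobp were lower in the knockout at an unadjusted p under 0.05. Of the 16 tested, 11 were lower and 5 higher, with a median of -0.10. Both knockout arrays lay below both heterozygous arrays for 6: these 3, Cd163, Folr2 and Mertk. Over all tested probe sets 6.38% were lower at an unadjusted p under 0.05 (limma), and 22.1% had both knockout arrays below. Cd68, a glycoprotein of lysosomes in phagocytes, read 9.83 and 9.38 in heterozygous skin, against 8.83 and 9.08 in knockout skin. The genotypes did not overlap, and the knockout signal averaged 63.8% of the heterozygous one. The gap was -0.65 (SE 0.16, 2 arrays on each side, limma adjusted p = 0.0732). It was -0.42 without heterozygous array 1. Cd68 passed the adjusted threshold in 2 settings besides a replicate block: leaving out heterozygous array 2 (limma adjusted p = 0.0172) and keeping only the upper 50% of signals (limma adjusted p = 0.0418).

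Trem2 and Tyrobp encode a lipid-sensing receptor of phagocytes and the adaptor it signals through. Trem2 read 8.11 and 8.12 in heterozygous skin, against 7.61 and 7.64 in knockout skin. Each pair lay close together and the pairs were far apart relative to that spread. The difference was -0.49 (SE 0.11, limma adjusted p = 0.0627), and it ran from -0.50 to -0.47 when any single array was left out. Tyrobp read 9.81 and 9.76 in heterozygous skin, against 9.29 and 9.41 in knockout skin. Both knockout values were again below both heterozygous values, with a difference of -0.44 (SE 0.11, limma adjusted p = 0.0801), which puts the receptor and its adaptor at 71.4% and 73.8% of their heterozygous means. Trem2 and Cd68 kept an unadjusted p under 0.05 in all 16 alternative settings run, and Tyrobp in 15, all but median centring.

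For the receptors most often used to define macrophages the differences were smaller, and none met an unadjusted p under 0.05. Adgre1, which encodes the F4/80 antigen, differed by -0.13 (95% interval -0.39 to 0.13), and Csf1r, the CSF1 receptor, by 0.077 (-0.21 to 0.36). Mrc1, the mannose receptor CD206, differed by 0.14 (-0.16 to 0.43), and Itgam, the integrin chain CD11b, by 0.13 (-0.16 to 0.42). The interval of Adgre1 takes in differences as large as those of Serping1, C3ar1 and Cfb, whereas those of the other 3 do not reach below -0.21. Mertk, a receptor for apoptotic cells, differed by -0.16, Cd163, the haemoglobin scavenger receptor, by -0.080, and Folr2, a folate receptor of tissue-resident macrophages, by -0.28. Lyz2, lysozyme of myeloid cells, differed by -0.16 and Cd14, the lipopolysaccharide co-receptor, by -0.041. Csf1r and Mrc1 turned below 0 without heterozygous array 2 (-0.074 and -0.010), and Adgre1 turned above 0 after median centring (0.024).

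The C-type lectins gave no common direction. Cd209a, a DC-SIGN relative of dermal macrophages and dendritic cells, read 9.28 and 7.60 in heterozygous skin, against 8.46 and 7.58 in knockout skin. The genotypes overlapped, with 1 high and 1 low array in each, and the difference of -0.42 had an SE of 0.44. Leaving out heterozygous array 1 turned it to 0.42, leaving out knockout array 2 gave 0.022, and leaving out heterozygous array 2 gave -1.26 (limma adjusted p = 0.0379). Clec10a, a galactose-type lectin, had the most positive difference of any member, 0.26 (SE 0.15, limma adjusted p = 0.392). It was the 1 tested member with both knockout arrays above both heterozygous arrays, though by a narrow margin. The difference was 0.46 without heterozygous array 1, then at an unadjusted p under 0.05, and 0.061 without heterozygous array 2. Clec7a, the β-glucan receptor dectin-1, differed by -0.063, and Marco, a scavenger receptor, by 0.013, which was -0.065 after median centring and -0.10 as deposited. The scavenger receptor Msr1 and Aif1, which encodes the macrophage protein IBA1, were under the filter. Msr1 differed by -0.062 and Aif1 by -0.043, with no test.

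Csf1, the growth factor that macrophages depend on, read 8.95 and 8.76 in heterozygous skin, against 8.44 and 8.47 in knockout skin. Its genotypes did not overlap, and the knockout signal averaged 75.9% of the heterozygous one. The difference was -0.40 (SE 0.12, limma adjusted p = 0.113), and it kept an unadjusted p under 0.05 in 15 of 16 alternative settings, all but median centring. The ligand read lower while its receptor Csf1r differed by 0.077; the difference between the 2 genes was not tested. Il34, the other ligand of CSF1R and a product of keratinocytes, differed by -0.049 (SE 0.11, limma adjusted p = 0.854).

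The bases upstream of 4 of the lower members, with those of Mrc1, a macrophage receptor that did not read lower, beside them, show the start regions of these genes. RefSeq's table of promoters (GRCm38.p6) holds 28 of the 40 members and 5 of the 8 that were lower; the 4 with the smallest p are shown, 5′ to 3′ on the gene's own strand, for the 250 bases before the start. Capitals mark GAGGAA or its reverse complement TTCCTC, the core of the element bound by PU.1, an ETS factor of myeloid cells. The windows are chr17:48346151-48346400 (plus strand) for Trem2, chr11:69666171-69666420 (minus) for Cd68, chr3:107760470-107760719 (minus) for Csf1, chr1:171234350-171234599 (minus) for Fcer1g and chr2:14229164-14229413 (plus) for Mrc1.
Trem2: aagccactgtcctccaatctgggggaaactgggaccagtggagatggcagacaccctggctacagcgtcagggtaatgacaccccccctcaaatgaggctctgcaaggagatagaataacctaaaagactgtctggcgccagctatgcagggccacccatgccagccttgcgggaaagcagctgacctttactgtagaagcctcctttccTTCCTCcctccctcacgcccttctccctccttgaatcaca
Cd68: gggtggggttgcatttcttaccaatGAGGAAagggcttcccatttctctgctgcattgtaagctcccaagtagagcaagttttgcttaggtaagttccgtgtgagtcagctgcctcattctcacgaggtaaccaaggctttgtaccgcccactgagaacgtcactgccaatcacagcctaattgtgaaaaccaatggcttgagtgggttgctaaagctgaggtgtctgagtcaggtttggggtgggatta
Csf1: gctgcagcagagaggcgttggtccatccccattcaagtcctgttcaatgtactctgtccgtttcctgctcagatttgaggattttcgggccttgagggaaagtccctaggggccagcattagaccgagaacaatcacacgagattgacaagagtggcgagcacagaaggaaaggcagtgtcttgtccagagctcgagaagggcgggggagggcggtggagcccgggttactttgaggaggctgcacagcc
Fcer1g: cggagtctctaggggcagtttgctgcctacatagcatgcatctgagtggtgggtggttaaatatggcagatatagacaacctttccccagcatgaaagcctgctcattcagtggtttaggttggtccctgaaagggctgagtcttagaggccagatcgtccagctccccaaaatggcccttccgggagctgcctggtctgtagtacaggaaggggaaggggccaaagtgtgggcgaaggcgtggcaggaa
Mrc1: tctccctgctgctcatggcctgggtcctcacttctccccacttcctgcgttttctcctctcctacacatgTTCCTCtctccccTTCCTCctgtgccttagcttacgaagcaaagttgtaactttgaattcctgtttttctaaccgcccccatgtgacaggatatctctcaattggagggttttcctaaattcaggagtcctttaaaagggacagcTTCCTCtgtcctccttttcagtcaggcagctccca
The match in Trem2 begins at base -40, counted back from the start, and that in Cd68 at base -225. Mrc1 has 3, at -180, -167 and -35, and the Csf1 and Fcer1g windows have none. On either strand, this match was in 15 of the 31 member windows, or 48.4%, and in 23.3% of all 32851 promoter windows of that length. The E-box CACGTG, which reads the same on both strands and is bound by CLOCK and BMAL1, was in 0 of the 31 member windows and in 6.02% of all. Of the 4 lower members shown, Trem2 and Cd68 hold the PU.1 letters and Csf1 and Fcer1g do not.

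Of the Fc receptor genes, the shared signalling chain read lower, and the receptors that bind antibody gave smaller differences. Fcer1g read 10.57 and 10.40 in heterozygous skin, against 9.87 and 10.30 in knockout skin. Both knockout values were below both heterozygous values, but the upper knockout array came close to them, and the difference was -0.40 (SE 0.15, limma adjusted p = 0.207). It was -0.18 without knockout array 1 and -0.61 without knockout array 2. Fcgr3, the activating receptor CD16, read 8.78 and 8.37 in heterozygous skin, against 8.34 and 8.37 in knockout skin. The genotypes did not overlap, but heterozygous array 1 alone stood apart, and the difference was -0.23 (SE 0.14), or -0.023 without that array.

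Fcgr2b, the inhibitory receptor, read 9.61 and 9.29 in heterozygous skin, against 9.41 and 9.38 in knockout skin. Fcgr1, the high-affinity receptor CD64, read 7.80 and 7.31 in heterozygous skin, against 7.57 and 7.51 in knockout skin. For both genes the knockout values lay between the heterozygous ones, with differences of -0.052 and -0.019. Their signs turned without heterozygous array 1 (0.11 and 0.23), and that of Fcgr2b also after median centring (0.090) and in the values as deposited (0.054). Fcgr4, an activating receptor, was under the filter at 6.14 and 5.54 in heterozygous skin, against 5.83 and 5.76 in knockout skin. The median over the 4 tested genes of this group was -0.14, or 0.045 with heterozygous array 1 left out. Fcgr2b, Fcgr4 and Fcgr3 are neighbouring genes with related sequences, so a probe of 1 of them may also bind transcripts of another; the same limit holds for Cd209a and Cd209d, C4b and C4a, and Cd59a and Cd59b.

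**Figure D2:**
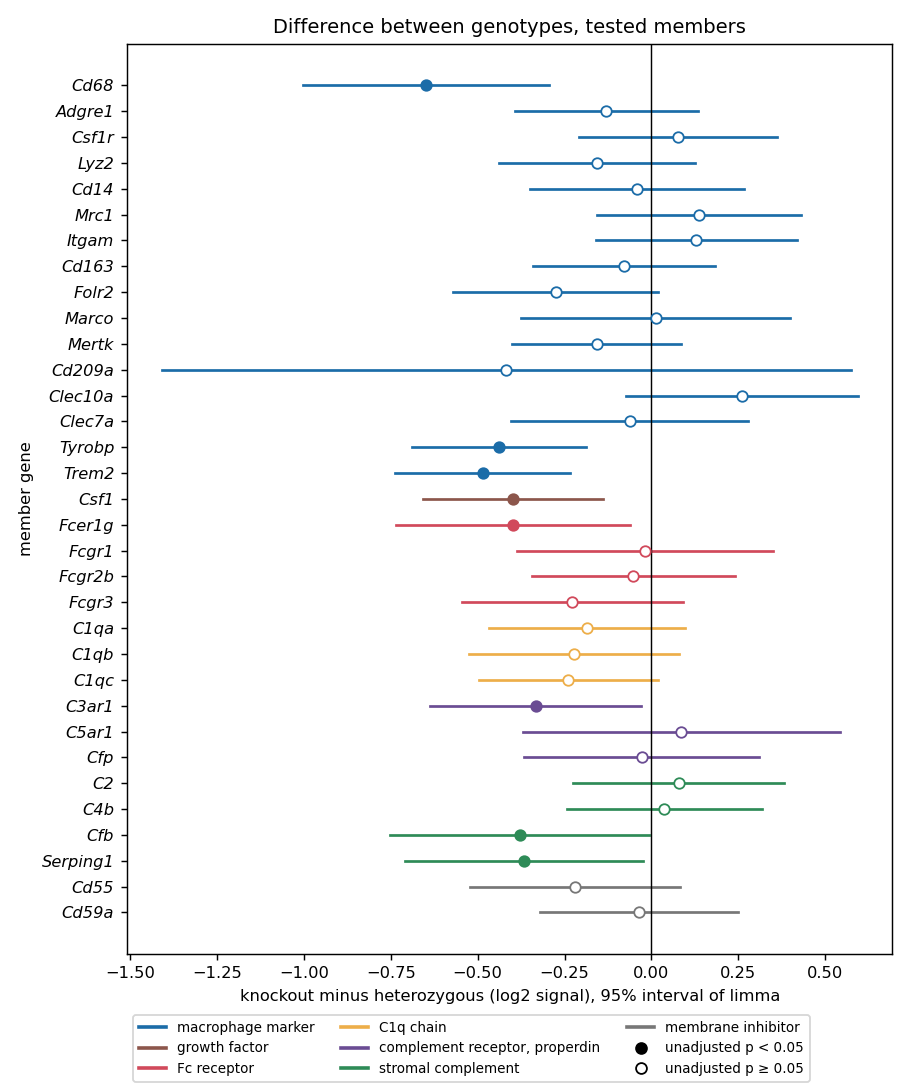
Difference between genotypes (knockout minus heterozygous, log2 signal) for the 33 tested members, with the 95% interval from limma's moderated variance. Filled points mark the 8 members with an unadjusted p under 0.05, all left of 0. The intervals of the other 25 include 0.

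The 3 chains of C1q, the recognition molecule of the classical pathway, were lower by small and similar amounts, none past an unadjusted p under 0.05. C1qa read 8.94 and 8.78 in heterozygous skin, against 8.55 and 8.80 in knockout skin. C1qb read 10.49 and 10.18, against 10.02 and 10.20. C1qc read 9.54 and 9.46, against 9.18 and 9.34. In each chain heterozygous array 1 was the highest and knockout array 1 the lowest, with the other arrays between them, and only C1qc did not overlap between genotypes. The differences were -0.19 (SE 0.13), -0.22 (SE 0.14) and -0.24 (SE 0.12), with limma adjusted p from 0.313 to 0.479. Without heterozygous array 1 their median was -0.11, against -0.22 with all arrays. The genes lie side by side on chromosome 4, and the assembled protein needs all of them.

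The receptors for the anaphylatoxins, the small fragments released from C3 and C5, gave 2 different pictures: C3ar1 read lower in both knockout arrays and C5ar1 did not. C3ar1 read 8.65 and 8.32 in heterozygous skin, against 8.08 and 8.22 in knockout skin. Its genotypes did not overlap, and the difference was -0.33 (SE 0.14, limma adjusted p = 0.238), or -0.17 without heterozygous array 1. C5ar1 read 7.36 and 6.68 in heterozygous skin, against 7.12 and 7.09 in knockout skin. The knockout values lay between the heterozygous ones, and the difference was 0.086 (SE 0.20). It was 0.42 with heterozygous array 1 left out and -0.25 without heterozygous array 2. Cfp, properdin, which stabilises the convertase of the alternative pathway, differed by -0.028, or by 0.13 after median centring and 0.091 in the values as deposited. Whether the response of C3ar1 differs from that of C5ar1 was not tested.

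Of the complement genes assigned to stromal cells, Cfb and Serping1 read lower and C2 and C4b did not. Serping1, which encodes C1 inhibitor, read 12.11 and 11.71 in heterozygous skin, against 11.43 and 11.67 in knockout skin. The genotypes did not overlap, although heterozygous array 2 and knockout array 2 nearly met, and the difference was -0.37 (SE 0.15, limma adjusted p = 0.249). Cfb, factor B, read 8.48 and 7.93 in heterozygous skin, against 7.86 and 7.78 in knockout skin. Here heterozygous array 1 stood apart from the other arrays, and the difference was -0.38 (SE 0.17, limma adjusted p = 0.273). Without heterozygous array 1 the differences were -0.16 for Serping1 and -0.11 for Cfb. Without heterozygous array 2 they were -0.57 and -0.65, and Cfb then passed the adjusted threshold (limma adjusted p = 0.0349).

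C2, the neighbour of Cfb on chromosome 17, read 7.54 and 7.28 in heterozygous skin, against 7.46 and 7.52 in knockout skin. C4b read 8.33 and 8.10 in heterozygous skin, against 8.33 and 8.18 in knockout skin. Both overlapped between genotypes, with differences of 0.078 (SE 0.14) and 0.037 (SE 0.13), and both turned below 0 without heterozygous array 2 (-0.050 and -0.079). C6 and C7, parts of the membrane attack complex, and Cfi, factor I, were under the filter. C6 read 6.40 and 6.22 in heterozygous skin, against 6.26 and 6.19 in knockout skin. C7 read 5.86 and 6.38, against 6.08 and 6.21, and Cfi 5.71 and 5.56, against 5.89 and 5.76. C6 and C7 overlapped between genotypes, and both Cfi values were higher in the knockout. The membrane inhibitors Cd55 and Cd59a differed by -0.22 (SE 0.14) and -0.036 (SE 0.13), and both overlapped; Cd59a was above 0 after median centring (0.12) and as deposited (0.082).

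Set side by side, the macrophage-restricted genes and the stromal complement genes gave medians of like size. The genes grouped as macrophage-restricted are the markers, Fc receptors, C1q chains, complement receptors and properdin. Both groups were set by role, and the cells of this skin that carry each transcript were not measured. Over the 26 tested genes of the first group the median difference was -0.14, with 20 lower and 6 higher. Of these, 5 were lower at an unadjusted p under 0.05 (limma), against 6.38% of all tested probe sets. Over the 4 tested stromal complement genes it was -0.16, with 2 lower and 2 higher and 2 lower at that level. Lists this small and of unequal size carry no test here, and an exact permutation test of 1 value over these arrays cannot give a two-sided p below 0.333. The mean of the macrophage-restricted genes was 8.76 and 8.50 in heterozygous and 8.45 and 8.51 in knockout skin, and that of the stromal complement genes 9.12 and 8.76 in heterozygous and 8.77 and 8.79 in knockout skin. In both, heterozygous array 1 was the highest and the other 3 arrays lay close together. Without heterozygous array 1 the medians were -0.067 and 0.023, and without heterozygous array 2 they were -0.26 and -0.32. In whole skin, fewer cells of a type and less RNA per cell cannot be told apart.

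**Figure D3:**
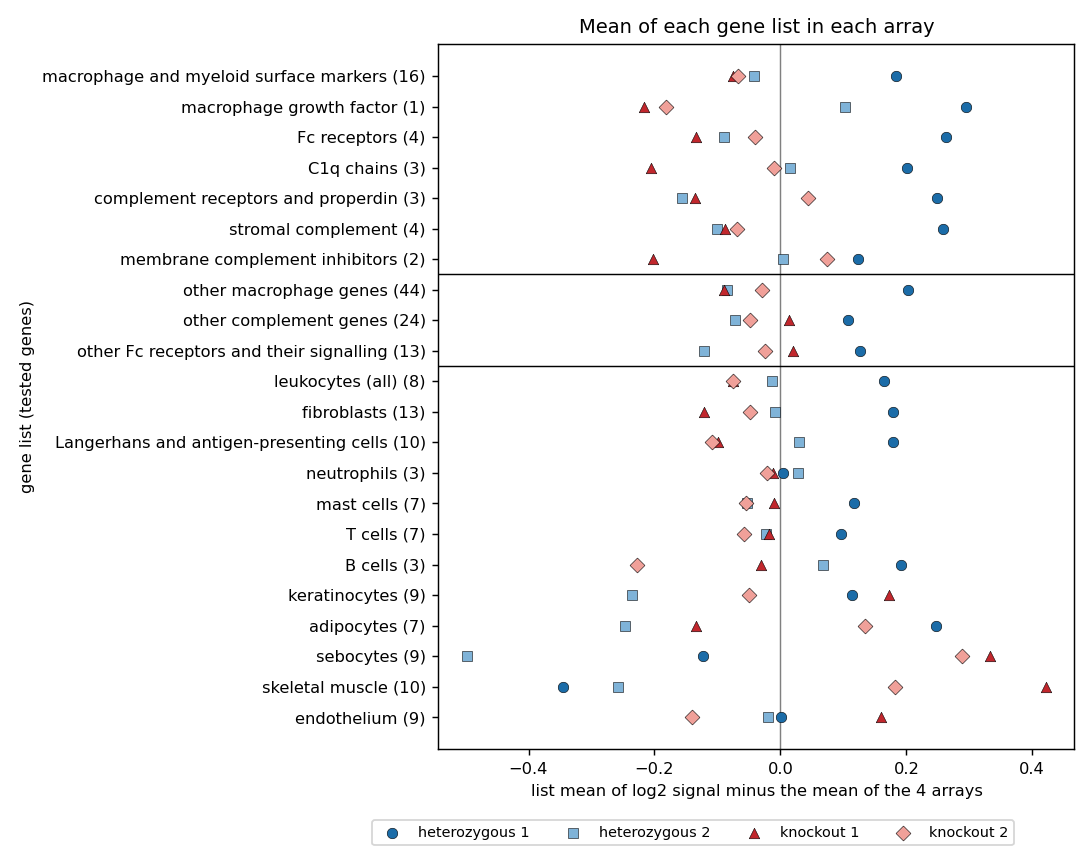
Mean log2 signal of each gene list in each array, as the distance from the list's mean over the 4 arrays; the number of tested genes is in brackets. Heterozygous array 1 is the rightmost array for all 7 member lists. It is also rightmost for the leukocyte, fibroblast, antigen-presenting cell, mast cell, T cell, B cell and adipocyte lists. For sebocyte and skeletal muscle genes both knockout arrays lie to the right of both heterozygous arrays.

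Most macrophage genes outside the 40 had a lower mean in the knockout too, with the same dependence on heterozygous array 1. Of 44 tested macrophage genes outside the 40, 31 were lower and 13 higher, with a median of -0.15. At an unadjusted p under 0.05 (limma) 7 were lower and 1 higher, against 6.38% and 11.6% of all tested probe sets. The 1 higher was Irf8, with a difference of 0.34 (SE 0.13, limma adjusted p = 0.224). Cd209d, a relative of Cd209a, fell: it read 9.99 and 9.72 in heterozygous skin, against 9.08 and 9.24 in knockout skin, a difference of -0.70 (SE 0.13, limma adjusted p = 0.027). The knockout values lay below both heterozygous values. Hpgds, which makes prostaglandin D2, differed by -0.59 (limma adjusted p = 0.059), Retnla, a product of alternatively activated macrophages, by -0.43 (0.0941), and Laptm5, a lysosomal protein of leukocytes that is also in the leukocyte list, by -0.38 (0.113). Without heterozygous array 1 the median of these 44 genes was 0.0087, with 22 lower and 22 higher, against 0.058 over all tested probe sets.

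Of 24 other complement genes tested, 3 were lower and 2 higher at an unadjusted p under 0.05 (limma). Over all tested probe sets 6.38% were lower and 11.6% higher at that level. By sign alone 13 of the 24 were lower and 11 higher, with a median of -0.019. The balance turned with 1 array: 16 were higher, with a median of 0.10, without heterozygous array 1, and 17 lower, with a median of -0.14, without heterozygous array 2. Cd93, once described as a C1q receptor and carried by endothelial and myeloid cells, differed by -0.49. C8b, of the membrane attack complex, differed by -0.37, with a mean signal of 6.72, just above the filter at 6.67. C1qbp, a mitochondrial protein that also binds C1q, differed by 0.36, and Cr1l, the rodent membrane regulator Crry, by 0.34. The adjusted p of these 4 ran from 0.134 to 0.249 (limma), so none passed. Among 13 other Fc receptor and signalling genes 7 were lower and 6 higher, with a median of -0.0077, and with limma 0 met an unadjusted p under 0.05. That count was 2 higher without heterozygous array 1 and 2 lower without heterozygous array 2.

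Lists of leukocyte and fibroblast markers shared the dependence on heterozygous array 1, and single genes among the fibroblast and antigen-presenting cell markers fell. Heterozygous array 1 also had the highest mean of the antigen-presenting cell, mast cell, T cell, B cell and adipocyte lists. It did not for the neutrophil, keratinocyte, sebocyte, skeletal muscle and endothelium lists. Of 8 tested genes of all leukocytes 5 were lower, with a median of -0.16 and means of 8.93 and 8.75 in heterozygous and 8.69 and 8.69 in knockout skin. Rac2, a small GTPase of blood cells, differed by -0.31 (limma adjusted p = 0.223), and Ptprc, the leukocyte antigen CD45, by -0.25 (0.274). Without heterozygous array 1 the leukocyte median was -0.016, with 4 lower and 4 higher, against 0.058 over all tested probe sets. After median centring it was -0.016, against 0.10. Fibroblast markers had a median of -0.10 over 13 genes, 8 of them lower, with means of 11.09 and 10.90 in heterozygous and 10.79 and 10.86 in knockout skin. Their median was -0.0034 without heterozygous array 1, with 7 lower and 6 higher, and -0.027 after median centring. Over all tested probe sets the medians in these settings were 0.058 and 0.10. Among them Sfrp2, a Wnt modulator (-0.90, limma adjusted p = 0.00894), and Pi16, a marker of a fibroblast subset (-0.76, 0.0142), fell. Antigen-presenting cell genes had a median of -0.21 over 10 genes, 8 of them lower. This median moved little, to -0.18 without heterozygous array 1 and -0.24 after median centring. Their means were 9.43 and 9.28 in heterozygous and 9.15 and 9.14 in knockout skin. Among them H2-Aa, an MHC class II chain, fell by 0.54 (limma adjusted p = 0.0497). The 2 that were not lower were H2-Ab1, another MHC class II chain (0.020, limma adjusted p = 0.949), and Cd207 (0.14, 0.609).

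Other tissue in the skin piece read higher in the knockout. All 10 tested skeletal muscle genes and all 9 sebocyte genes were higher, with medians of 0.52 and 0.61; without heterozygous array 2, 1 sebocyte gene was lower and the medians were 0.49 and 0.41. Muscle means were 11.84 and 11.92 in heterozygous and 12.60 and 12.36 in knockout skin, and sebocyte means 11.12 and 10.75 in heterozygous and 11.58 and 11.54 in knockout skin. For both lists the genotypes did not overlap, and the array with the highest muscle mean, knockout array 1, also had the lowest mean over the tested members. All of these adjusted calls, that of Cd209d included, were lost when probe sets paired with several genes were tested too. The part of these markers in the differences of the macrophage and complement genes was not tested.

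**Figure D4:**
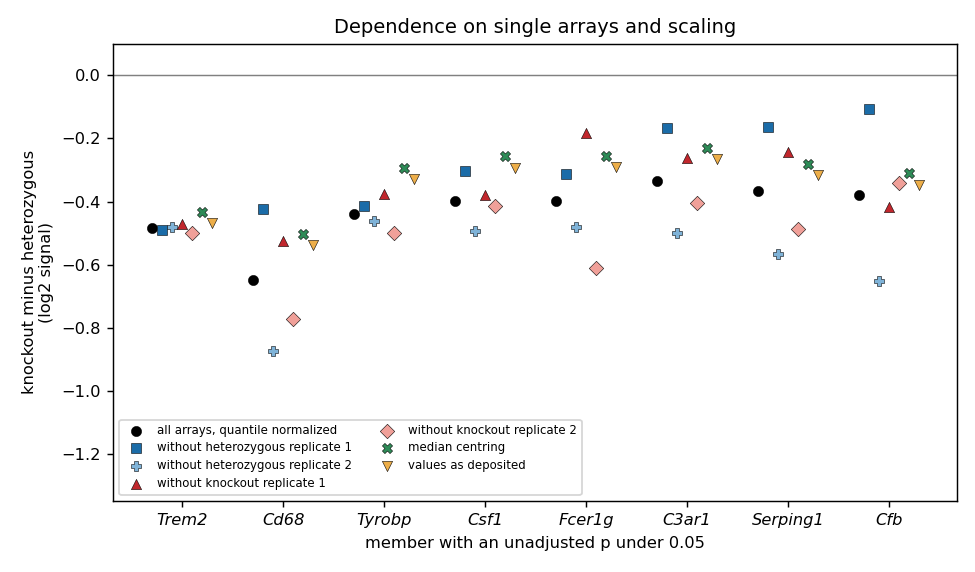
Difference between genotypes (knockout minus heterozygous, log2 signal) for the 8 members with an unadjusted p under 0.05, with all arrays, without each array in turn, and under 2 other scalings. Trem2 stays between -0.50 and -0.43 throughout, whereas Cfb runs from -0.65 to -0.11.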

How the data were processed

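RNA of whole back skin from 4 mice, 2 per genotype, was read on 1 array each; the design text calls them biological littermate replicates. The authors deposited 1 table of probe set signals, taken to be log2 from its range. The submitters' processing notes name Expression Console 1.1.1 and PLIER 2.0, and no source used here states a scaling between arrays or the build behind the probe annotation. Deposited quartiles differed by up to 0.337 between arrays, so the arrays were quantile normalized, which assumes like distributions and can shift values in skin of another composition. Of 35557 probe sets, 21789 had 1 gene in the array annotation, 1621 several and 12147 none; 21698 symbols were updated through a GRCm38.p6 gene table. Tested were the 16341 probe sets with 1 gene whose mean exceeded the 25th percentile (6.67).

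The fit used limma 3.58.1 in R 4.3.3 (lmFit, eBayes with a trend, 2 residual degrees of freedom, Benjamini-Hochberg over all tested probe sets, threshold 0.05) and was tested on simulated data. SEs and intervals use limma's moderated variance. With 2 arrays a genotype, p-values reflect only these mice. Each variance also draws on those of the other tested probe sets (median prior degrees of freedom 7.73). The members and lists were chosen with earlier results of these data known. All 40 members are named. Single arrays are given for those with an unadjusted p under 0.05 or a difference of at least 0.3 in size, the C1q chains, the Fc receptors and stromal complement, and, outside that rule, for C5ar1 beside C3ar1 and for Cd209d, chosen after their values were seen. From other lists up to 4 tested genes with the smallest p are named, and Il34, Irf8, H2-Ab1 and Cd207 were chosen after their values were seen. Alternatives were median centring, no scaling, an offset of 16 on the linear scale, other filters and variance priors, a replicate block, each array left out, 1 probe set per gene, the mean over a gene's probe sets, and all probe sets; probe sets paired with 1 or several genes were added after seeing the data.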

Additional observations from a re-analysis of the deposited data

How the results depend on the processing

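The number of probe sets past an adjusted p under 0.05 was 323 (limma); it was 913 after median centring, 544 with the values as deposited and 145 without a filter. It was 0 with all probe sets and 0 with probe sets paired with 1 or several genes, where 3254 and 2713 had an unadjusted p under 0.05, and with an array left out it ran from 77 (knockout array 1) to 986 (heterozygous array 1). Of the calls at an unadjusted p under 0.05 64.4% were higher, and 79.3% after median centring. Members lower at that level numbered 8 of 33, against 6.38% of all tested probe sets. They were 2 after median centring (4.87% of all) and 4 as deposited (6.83%). With all probe sets they were 4 (5.76%), and with probe sets paired with 1 or several genes 5 (5.82%). The labels give the replicates numbers but do not say that a number marks a shared litter. Over the tested probe sets, the deviations of heterozygous array 1 and knockout array 1 from their genotype means correlated at 0.167. With the number as a replicate block 9 members, Cd209a now among them, were lower at an unadjusted p under 0.05 (limma), against 8.48% of all tested probe sets. Then 1235 probe sets, or 7.56% of all tested, passed the adjusted threshold. Of the 33 members 3 did (Cd68, Trem2 and Tyrobp, limma adjusted p 0.019, 0.0202 and 0.043).

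The median of the stromal complement genes ran from -0.32 to 0.023 with an array left out. Small differences changed sign with the scaling. After median centring Cd59a was at 0.12, Fcgr2b at 0.090, Cfp at 0.13, Adgre1 at 0.024 and Marco at -0.065; as deposited Cd59a was at 0.082, Fcgr2b at 0.054, Cfp at 0.091, C5ar1 at -0.015 and Marco at -0.10. With an array left out, 12 members changed sign. Their ranges were -0.18 to 0.11 for Cd59a, -0.22 to 0.11 for Fcgr2b, -0.24 to 0.18 for Cfp, -0.074 to 0.23 for Csf1r, -0.010 to 0.29 for Mrc1, -0.079 to 0.15 for C4b, -1.26 to 0.42 for Cd209a, -0.27 to 0.23 for Fcgr1, -0.050 to 0.21 for C2, -0.25 to 0.42 for C5ar1, -0.15 to 0.17 for Marco and -0.13 to 0.0069 for Clec7a. The cause was not tested. The 8 members named first kept their direction in all 16 alternatives. With 2 arrays a genotype the moderated SE of a member was 0.11 to 0.44.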

Other observations

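Of 7 tested mast cell genes 6 were lower and 1 higher, with a median of -0.13, or -0.067 without heterozygous array 1; Tpsb2, a mast cell tryptase, differed by 0.35 (SE 0.13, limma adjusted p = 0.193). Of 7 tested T cell genes 5 were lower and 2 higher, with a median of -0.12, or -0.040 without heterozygous array 1 and -0.0012 without knockout array 2. The 3 tested B cell genes were lower, with a median of -0.24, or -0.10 without knockout array 2. Only 3 of 11 neutrophil genes lay above the signal filter, with means of 6.95 and 6.98 in heterozygous and 6.94 and 6.93 in knockout skin. Among 9 endothelial genes 5 were higher and 4 lower, with a median of 0.074, which was -0.037 without heterozygous array 2 and -0.099 without knockout array 1. Of 7 adipocyte genes 5 were higher, with a median of 0.079. It was 0.35 without heterozygous array 1, -0.080 with 6 lower without heterozygous array 2, and -0.026 without knockout array 2. Lep, the hormone leptin, differed by -0.60 (SE 0.22, limma adjusted p = 0.2). No gene of these lists passed the adjusted threshold.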
